A study of Mus musculus with 41 samples.

Results

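Mature CCR7-positive dendritic cells are described here in the immune cells of the mouse small intestine. A cell was a member if it held at least 2 unique molecular identifiers (UMIs, each 1 captured transcript) of Ccr7, at least 1 of Fscn1 and at least 5 of Cd74, and none of Cd3d, Cd3e, Trac or Cd79a. By this rule 327 of the 58067 cells were members, 251 from Peyer's patches and 76 from the lamina propria. The cells came from female BALB/cJ mice aged 10 weeks, either untreated wild type animals (control) or animals with ovalbumin-driven food allergy. Peyer's patch cells were sequenced without a named sort, in 10 control and 9 allergy libraries. Lamina propria cells were sequenced as a fraction the labels call nonTB, in 3 control and 3 allergy libraries, and as a fraction called IgDLow, in 1 library of each kind, and the labels do not define these names. Nor do they tie libraries to animals, and p-values here reflect only how much the libraries of a test varied, part of which may be technical.

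Dendritic cells take up antigen in tissues and present it to T cells. The conventional kinds are cDC1, which favour presentation on MHC class I, and cDC2, which favour class II. On maturation a dendritic cell switches on CCR7, the receptor for CCL19 and CCL21 that guides it to T cell areas, and Fscn1, an actin bundler of its long processes. It also raises costimulatory molecules, chemokines and NF-kB family members, and stops taking up new antigen. Similar cells, often rich in regulatory molecules as well, have been described in many tissues and are frequently called migratory or "mature regulatory" dendritic cells.

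Members were unevenly spread. Of the 327 cells, 204 (62.4%) came from the 4 Peyer's patch libraries with 1 date in their titles, called run date 5 of 7 here. No members were found in 6 of the 19 Peyer's patch libraries, which allows shares of up to 0.190% to 0.792% of their cells (3 counts, counting error only). Libraries held 379 to 3891 cells. Members held 913 to 21994 UMIs, with a median of 6526 against 10123 in immature cDC1 and 6618.5 in immature cDC2. No cell barcode was shared between 2 members, and 20 members (6.12%) shared theirs with some cell of another library. At least 2 UMIs of another lineage's genes were present in 64 members (19.6%), against 42 immature cDC1 (8.62%) and 29 immature cDC2 (9.42%). In members they came from innate lymphoid cells in 26 (5 of the cDC1 and 6 of the cDC2), plasmacytoid dendritic cells in 25 (5 and 5), mast cells in 10 (25 and 12), B cells in 7, T cells in 6 and macrophages in 0. Immature cells were chosen by gates on Cd74 and lineage genes with no Ccr7 and no Fscn1 UMI, which gave 487 cDC1 and 308 cDC2.

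Genes the rule did not use carried the label of mature dendritic cells. Ccl22, Il4i1, Cacnb3, Relb and Cd83 are further marks of this state, and 269 of 327 members (82.3%) held UMIs of at least 3 of them, against 13 of 487 cDC1 (2.67%) and 20 of 308 cDC2 (6.49%). All 5 were present in 98 members and none in 1. After thinning each cell to 1500 UMIs, which left out 8 members, 5 cDC1 and 3 cDC2, Il4i1 was found in 55.2% of members, 0.415% of cDC1 and 2.30% of cDC2. Relb was found in 50.5%, 3.32% and 11.8%, and unthinned in 91.7%, 24.9% and 33.8%. Ccl22 was found in 30.4%, 1.66% and 3.61%, and unthinned in 45.6%, 4.93% and 7.79%. Cd83 differed least, at 69.9%, 59.5% and 51.5% after thinning and 91.4%, 91.4% and 79.6% before.

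The values that chose the members covered a wide range. Ccr7 ran from 2 to 88 UMIs with a median of 10, Fscn1 from 1 to 105 with a median of 7, and Cd74 from 5 to 994 with a median of 169. Just inside the Ccr7 limit, the 37 cells with 2 UMIs summed to 261 CPM (UMIs of a gene per 1000000 UMIs of the summed cells) of Il4i1 and 380 of Relb. Just outside it, 61 cells with 1 Ccr7 UMI summed to 170 and 252, and all members to 742 and 531. On the Fscn1 side, 56 members with 1 UMI summed to 283 CPM of Il4i1, and 373 cells with none, otherwise inside the rule, to 94.6. A further 74 cells met the rule except for a T cell transcript or Cd79a, and 12 except for a Cd74 count of 1 to 4.

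Some members held transcripts that mark cDC1 (Xcr1, Clec9a or Cadm1) or cDC2 (Cd209a, Clec10a, Sirpa or Mgl2). Of the 251 Peyer's patch members 54 (21.5%) held a UMI of cDC1 marks only, 44 (17.5%) of cDC2 marks only, 51 of both and 102 of neither. In the nonTB lamina propria fraction 7 held cDC1 marks only, 13 cDC2 marks only, 2 both and 39 neither. Any cDC1 mark was present in 41.8% and any cDC2 mark in 37.9% of Peyer's patch members (median 6513 UMIs), against 0.660% and 0.824% of T cells there (median 3080 UMIs), which should lack both. In the nonTB fraction the shares were 14.8% and 24.6% of members (median 6269 UMIs) and 2.14% and 3.57% of 140 T cells (median 1640 UMIs). Over members of all fractions these shares rested mostly on Cadm1 and Sirpa. Cadm1 was found in 33.3% of members, Clec9a in 3.06% and Xcr1 in 1.53%. Sirpa was found in 29.1%, Cd209a in 6.42%, Clec10a in 2.45% and Mgl2 in 2.14%. From which kind a member came was not tested, and the depths differ. As a share of all gated dendritic cells, members made up 63.1% in Peyer's patches, 10.6% in the nonTB fraction and 10.2% in the IgDLow fraction. Tissue, sort and run date cannot be told apart in these shares.

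Compared with immature dendritic cells of the same tissue, mature cells held more Ccl22, Il4i1, Cd63, Relb and Fabp5 and less H2-DMb1, Wdfy4 and Ifitm3, in the lamina propria and in Peyer's patches alike. The differences were spread over many genes. UMIs were summed per class and library, or per class, condition and run date in Peyer's patches, and sums of at least 10 cells were fitted with edgeR's quasi-likelihood test, with Benjamini-Hochberg adjustment over all genes tested. A log2 difference compares mature cells with the mean of cDC1 and cDC2. In the lamina propria 673 of 4390 genes (15.3%) had an adjusted p under 0.05, 424 higher in mature cells (9.66%) and 249 lower (5.67%). Peyer's patches gave 1233 of 4640 genes (26.6%), 784 higher (16.9%) and 449 lower (9.68%). Of the genes higher in mature cells 299 were so in both tissues, which is 70.5% of the lamina propria set and 38.1% of the Peyer's patch set, and 159 were lower in both (63.9% and 35.4%). The 4 genes Apoe, Cd69, Epcam and Pigp, chosen after their values were seen, passed in opposite directions, lower in the lamina propria and higher in Peyer's patches. Against cDC1 alone 911 genes passed in the lamina propria (20.8%), 535 higher (12.2%) and 376 lower (8.56%), and 1599 in Peyer's patches (34.5%), 919 higher (19.8%) and 680 lower (14.7%). Against cDC2 alone 529 passed in the lamina propria (12.1%), 320 higher (7.29%) and 209 lower (4.76%), and 529 in Peyer's patches (11.4%), 344 higher (7.41%) and 185 lower (3.99%). The median log2 difference over all genes was −0.06 in the lamina propria and 0.02 in Peyer's patches.

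These tests rest on few sums of mature cells. In the lamina propria there were 2, control library 2 with 14 cells and 81797 UMIs and control library 3 with 19 cells and 149710 UMIs, and in Peyer's patches 3, control run date 1 with 11 cells, control run date 5 with 108 and allergy run date 5 with 96. Values per sum are given in this order throughout, beside immature values of the same libraries or sums. Cells were assigned by gene counts in the same cells, so an adjusted p describes only how regular the fitted sums of all classes were. Genes of the gates were not tested. The lamina propria fit also held cDC1 and cDC2 sums of all 6 nonTB libraries, so its spread came mostly from immature cells. Its adjusted p-values therefore say little about how regular the 2 mature sums were. Without control library 2 or 3 the lamina propria count was 382 or 353, and without the allergy or the control sum of run date 5 the Peyer's patch count was 421 or 782.

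Genes of cell movement and the cytoskeleton were higher in mature cells nearly throughout. Of the 14 genes tested in the lamina propria 13 were higher and 0 lower, with a median log2 difference of 2.35, and in Peyer's patches 12 of 15 and 0, with a median of 2.57. Marcksl1 encodes an actin-binding protein of the MARCKS family. It stood at 1968 and 1723 CPM in the mature sums of the lamina propria, against 67.3 and 44.5 in cDC1 and 346 and 165 in cDC2 of the same libraries. Peyer's patch mature sums held 1145, 1528 and 1691 CPM of it, against 115, 105 and 16.7 in cDC1 and, in the run date 5 sums only, 164 and 93.0 in cDC2. Mature and immature sums did not overlap in either tissue. The log2 difference was 4.03 ± 0.21 (SE, adjusted p = 5.97e-15) in the lamina propria and 4.01 ± 0.33 (adjusted p = 7.91e-08) in Peyer's patches.

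Cd63, a tetraspanin of late endosomes and exosomes, was among the genes with the largest differences. Mature cells held 831 and 521 CPM in the lamina propria and 262, 394 and 941 in Peyer's patches, while no immature sum of these libraries exceeded 27.3. Its log2 difference was 6.02 ± 0.36 and 5.72 ± 0.31 in the same order of tissues (adjusted p = 1.2e-13 and 1.25e-09). Tmem123, a membrane protein also called porimin, and Samsn1, a signalling adaptor, were higher by 3.68 ± 0.20 and 3.89 ± 0.22 in the lamina propria and by 3.80 ± 0.22 and 3.15 ± 0.21 in Peyer's patches on the log2 scale. Basp1, a membrane protein of growing cell processes, differed by 3.02 ± 0.24 and 2.82 ± 0.27. Adam8, a membrane protease, passed in the lamina propria at 1.68 ± 0.31 (adjusted p = 0.000224) and stood at 0.06 ± 0.29 in Peyer's patches (adjusted p = 0.91). The adhesion molecule Icam1 did the opposite, at 0.82 ± 0.38 (adjusted p = 0.153) and 1.94 ± 0.26 (adjusted p = 1.98e-05), and neither difference between tissues was tested.

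**Figure D1:**
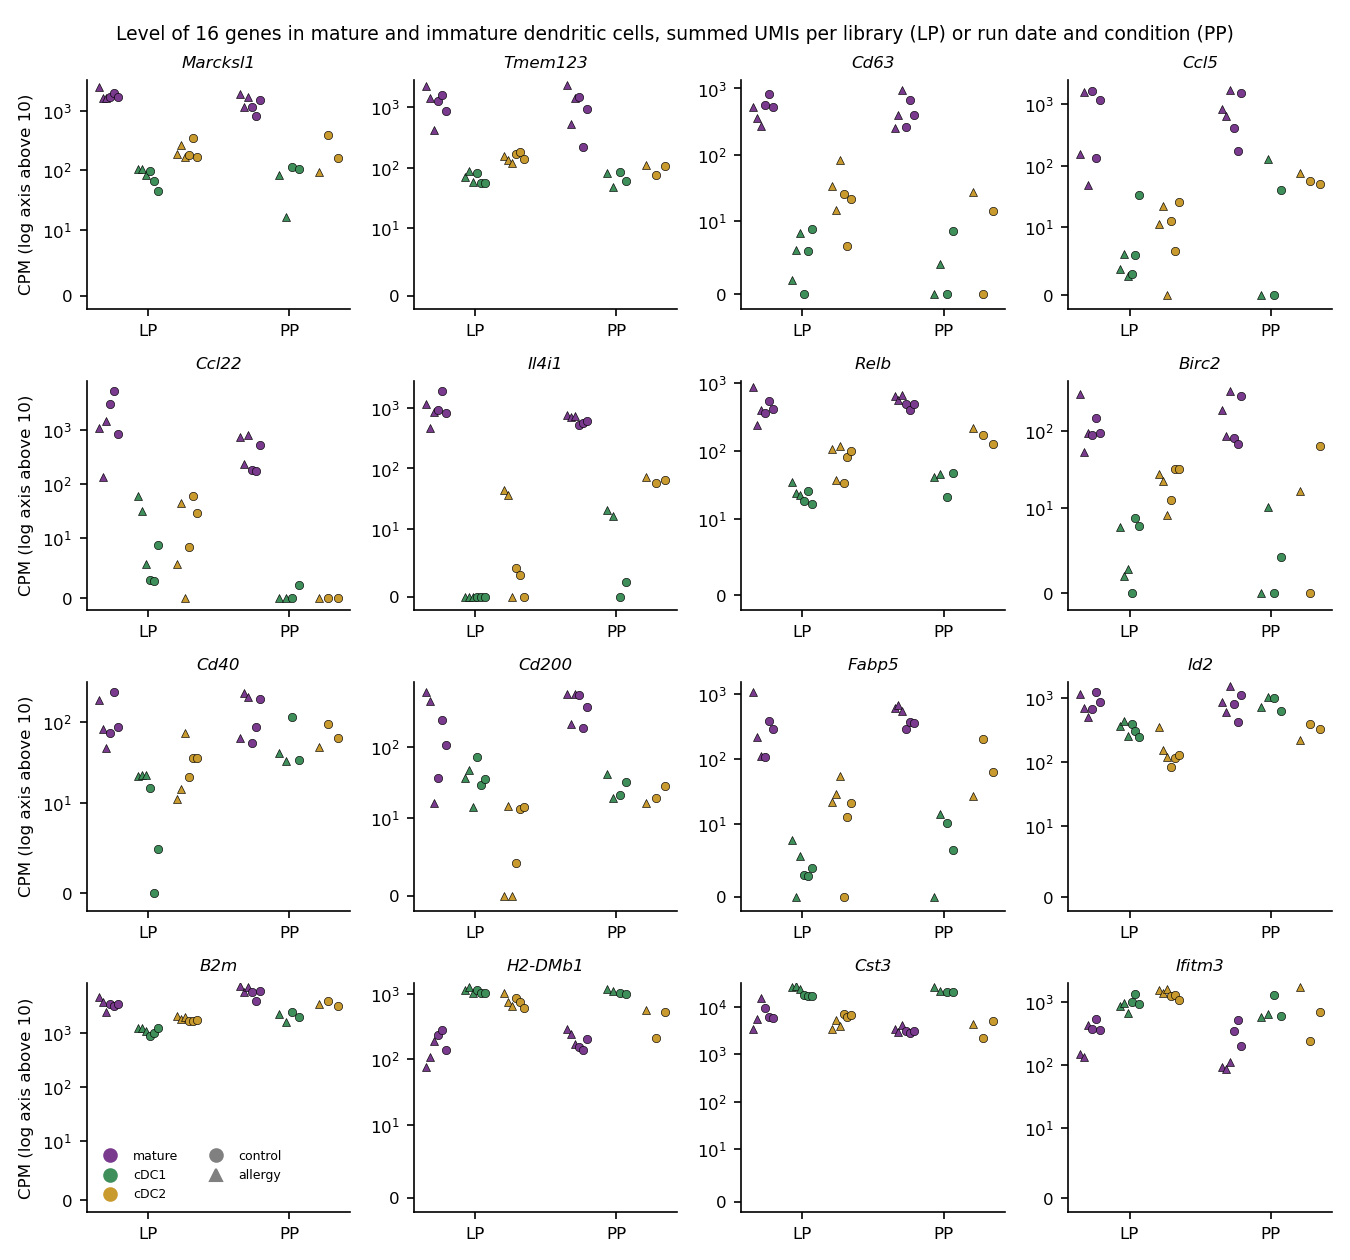
CPM (y axis, logarithmic above 10) of 16 genes in each sum of at least 5 cells, for mature cells (purple), immature cDC1 (green) and immature cDC2 (yellow) of both tissues, with circles for control and triangles for allergy. Marcksl1, Tmem123, Cd63, Relb and Fabp5 lie higher in the mature sums, and H2-DMb1 and Ifitm3 lower.

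Most genes of the NF-kB pathway were higher in mature cells than in the mean of both immature classes. Of 15 tested genes 11 were higher and 0 lower in the lamina propria, with a median log2 difference of 1.50, and 14 were higher and 0 lower in Peyer's patches, with a median of 1.51. Against cDC2 alone 6 were higher and 1 lower in the lamina propria, and 6 and 0 in Peyer's patches. The pathway has 5 subunits, among them Relb and Nfkb2 of the non-canonical arm and Rel, held in the cytoplasm by inhibitors such as Nfkbia until a signal arrives. Since these genes moved together, their promoters were read from RefSeq on GRCm38.p6 for the 250 bases before each start, and 12 of 15 genes matched. The kappa B words searched, on both strands, were GGGA followed by any base and then by TTTCC or TTCCC. They occurred in 5 of the 12 (Rel, Nfkb2, Nfkbia, Tnip3 and Tnip1), against 209 of 27025 promoters of the same length (0.773%). Among genes tested in both tissues 35 of 3225 promoters held a word (1.09%). The share was 8 of 226 (3.54%) for genes higher in both tissues and 3 of 126 (2.38%) for genes lower in both. The list was chosen for its tie to NF-kB, and a match is a description of letters, not a bound site. Below are a subunit of each arm and an inhibitor, 5′ to 3′ along the gene, with the word in capitals. The Rel window lies at chr11:23770970-23771219 on the minus strand with the word 82 bases before the start, that of Nfkb2 at chr19:46304487-46304736 on the plus strand with the word 29 bases before it, and that of Nfkbia at chr12:55492648-55492897 on the minus strand with the word 19 bases before it.
Rel: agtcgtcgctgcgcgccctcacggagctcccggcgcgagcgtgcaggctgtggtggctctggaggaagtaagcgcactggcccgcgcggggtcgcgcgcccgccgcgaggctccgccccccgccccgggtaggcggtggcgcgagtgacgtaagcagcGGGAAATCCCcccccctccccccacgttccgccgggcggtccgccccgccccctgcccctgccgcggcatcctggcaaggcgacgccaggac
Nfkb2: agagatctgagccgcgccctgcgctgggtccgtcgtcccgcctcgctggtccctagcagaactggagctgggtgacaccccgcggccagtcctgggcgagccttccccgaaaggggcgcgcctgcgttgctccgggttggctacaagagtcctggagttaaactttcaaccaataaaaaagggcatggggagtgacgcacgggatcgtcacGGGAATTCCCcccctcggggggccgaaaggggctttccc
Nfkbia: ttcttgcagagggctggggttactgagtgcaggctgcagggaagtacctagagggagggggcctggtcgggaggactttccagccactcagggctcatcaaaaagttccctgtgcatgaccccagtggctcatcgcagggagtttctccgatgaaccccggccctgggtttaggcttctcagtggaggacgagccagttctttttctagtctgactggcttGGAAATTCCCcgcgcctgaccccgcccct

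Relb stood at 538 and 407 CPM in mature cells of the lamina propria, against 26.3 and 16.8 in cDC1 and 81.6 and 101 in cDC2. The Peyer's patch sums held 497, 488 and 667 CPM, against 21.0, 47.0 and 45.9 in cDC1 and 128 and 219 in cDC2. Every mature sum lay above every immature one, and the log2 difference was 3.48 ± 0.27 in the lamina propria (adjusted p = 3.94e-11) and 2.64 ± 0.22 in Peyer's patches (adjusted p = 8.22e-08). Rel differed by 2.15 ± 0.22 and 1.51 ± 0.20, and its cDC2 levels (209 and 233 CPM, then 442 and 295) were nearer to those of mature cells (501 and 641, then 304, 632 and 569) than its cDC1 levels, which were 31.5 to 124. Nfkb2 differed by 1.56 ± 0.36 (adjusted p = 0.00229) and 1.05 ± 0.22 (adjusted p = 0.00172). Nfkbia differed by 1.19 ± 0.27 (adjusted p = 0.0024) and 2.31 ± 0.22 (adjusted p = 5.16e-07), and in the lamina propria cDC2 at 1531 and 826 CPM reached the mature level of 1247 and 728. Birc2, an E3 ligase of the arm that holds Relb in check, differed by 2.89 ± 0.51 (adjusted p = 0.000107) and 4.11 ± 0.32 (adjusted p = 4.39e-08). Traf1, a receptor adaptor, differed by 2.30 ± 0.24 and 1.67 ± 0.22. Rela differed by 1.26 ± 0.38 (adjusted p = 0.0212) and 0.83 ± 0.32 (adjusted p = 0.0636). Many of these calls rest on single sums. Of the 11 genes called in the lamina propria, 6 lost their call without control 3, with adjusted p-values of 0.11 for Rela, 0.372 for Nfkb1, 0.132 for Nfkbia, 0.0713 for Nfkbib, 0.596 for Nfkbie and 0.202 for Birc3. Without control 2 the calls of Rela (0.336), Nfkb1 (0.142) and Nfkb2 (0.169) were lost. In Peyer's patches Nfkb2 (0.125), Nfkbib (0.42) and Nfkbiz (0.0947) lost theirs without the allergy sum of run date 5, and Nfkbib also without the control sum (0.0874).

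Costimulatory and coinhibitory molecules were counted in each tissue on its own, and the difference between tissues was not tested. Of 13 genes tested in Peyer's patches 10 were higher and 1 lower (median 2.12), and in the lamina propria 3 of 10 and 1 (median 0.99), which became 7 of 10 higher when sums of at least 5 cells entered. Cd200, whose receptor restrains myeloid cells, stood at 245 and 107 CPM in the lamina propria and 552, 373 and 582 in Peyer's patches. Its immature sums ran from 13.1 to 35.6, below every mature sum, and the log2 difference was 3.24 ± 0.45 (adjusted p = 3.17e-06) and 4.26 ± 0.29 (adjusted p = 7.91e-09). Cd40, the receptor for T cell help, differed by 3.35 ± 0.57 (adjusted p = 7.27e-05) and 1.76 ± 0.33 (adjusted p = 0.000646). Its Peyer's patch sums overlapped, with 55.2, 192 and 200 CPM in mature cells and 115, 34.2 and 33.4 in cDC1. Cd274, which encodes PD-L1, differed by 2.26 ± 0.50 (adjusted p = 0.00147, and 0.0646 without lamina propria control 3) and 2.12 ± 0.32 (adjusted p = 0.000108). Its cDC2 levels of 68.2 to 82.0 CPM lay inside the mature range of 0 to 134.

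Tnfrsf4, which encodes OX40, had 185 UMIs in the Peyer's patch mature sums and none in the immature ones, at least 55.7-fold higher against a floor of 3 counts over the immature group (edgeR adjusted p = 3.32e-07). The CPM of Tnfrsf4 was 110, 61.4 and 193 in the 3 mature sums. Icosl, the ligand of ICOS, stood at 262, 146 and 214 CPM in mature cells of Peyer's patches and at 0 to 32.8 in immature ones, a log2 difference of 3.14 ± 0.32 (adjusted p = 9.96e-07). Icosl differed by 1.13 in the lamina propria (adjusted p = 0.273). Cd80 and Cd86 bind the same T cell receptors: Cd80 differed by 1.17 ± 0.30 in Peyer's patches (adjusted p = 0.0076, and 0.439 without the allergy sum of run date 5), and Cd86 by −0.82 ± 0.34 (adjusted p = 0.105) and 0.15 ± 0.22 (adjusted p = 0.67). Havcr2, which encodes TIM-3, was the member of the list that was lower, by −1.23 ± 0.40 (adjusted p = 0.0312, lost without either mature sum at 0.146 and 0.228) and −3.09 ± 0.36 (adjusted p = 3.89e-06). Its Peyer's patch values were 0, 18.3 and 13.4 CPM in mature cells and 73.4 to 164 in immature ones.

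Chemokines separated into a few that were far higher and others that were not. Of 11 tested in the lamina propria 4 were higher and 1 lower (median 0.90, or 1.56 with genes at a floor put at their bound), and of 9 in Peyer's patches 6 and 0 (median 2.27). Ccl22, a ligand of CCR4 that draws regulatory and type 2 T cells, stood at 5061 and 828 CPM in the lamina propria, against at most 58.7 in immature sums of those libraries. Peyer's patch mature sums held 179, 516 and 794 CPM, with 1 UMI in all immature sums together. Mature cells were above immature ones in each sum, by 6.91 ± 0.36 on the log2 scale in the lamina propria (adjusted p = 5.97e-15) and by a ratio of 852 in Peyer's patches (95% counting interval 152 to 33672, edgeR adjusted p = 5.99e-10). Ccl5, a chemokine that attracts T cells, stood at 134 and 1176 CPM and at 414, 1492 and 1674, and differed by 5.09 ± 0.29 (adjusted p = 3.56e-14) and 4.49 ± 0.27 (adjusted p = 3.03e-09). Its highest immature sum of either tissue held 127 CPM, just under the lowest mature one. Cxcl16, the ligand of CXCR6, differed by 1.83 ± 0.23 and 2.11 ± 0.24, again with every mature sum above every immature one.

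Ccl17, the other ligand of CCR4, followed 1 library in the lamina propria. It stood at 697 CPM in control 2 and 80.2 in control 3, while cDC2 held 212 and 126, and the call (adjusted p = 0.00444) was lost without control 2 (0.543). Ccl4 was lower in mature cells of the lamina propria, at 24.5 and 13.4 CPM against 75.4 to 377 in immature sums (−3.72 ± 0.69, adjusted p = 0.00021), and stood at −0.23 ± 0.28 in Peyer's patches (adjusted p = 0.585). Among cytokines 1 of 5 was higher in the lamina propria and 0 lower (median 0.31), and 5 of 7 were higher and 1 lower in Peyer's patches (median 2.94). With sums of at least 5 cells the lamina propria count was 4 of 7. Il12b, the p40 subunit of IL-12 and IL-23, had 108 UMIs in the Peyer's patch mature sums (27.6, 53.5 and 96.5 CPM) and 1 in the immature ones (adjusted p = 4.16e-06). Il6 stood at 110, 201 and 184 CPM in mature cells there and at 0 to 10.9 in immature ones (ratio 43.0, counting interval 19.5 to 118, adjusted p = 4.75e-08). Ebi3, a subunit of IL-27 and IL-35, differed by 1.95 ± 0.35 in Peyer's patches (adjusted p = 0.000404) and 0.31 in the lamina propria (adjusted p = 0.774). Il1b did not pass in either tissue, at 0.01 (adjusted p = 0.989) and −0.42 (adjusted p = 0.401).

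Genes tied to tolerance were higher, 4 of 6 in the lamina propria (median 2.17) and 6 of 6 in Peyer's patches (median 3.09), with 0 lower. Il4i1, a secreted enzyme that consumes amino acids and restrains T cells, stood at 1858 and 822 CPM and at 511, 614 and 727, against at most 71.1 in any immature sum of these libraries. In the lamina propria 275 UMIs in mature cells stood against 1 in immature ones (adjusted p = 9.1e-17), and in Peyer's patches the log2 difference of Il4i1 was 4.70 ± 0.28 (adjusted p = 2.45e-09). Socs2, a feedback inhibitor of cytokine signalling, was higher by a ratio of 61.7 (counting interval 29.4 to 150) and of 184 (71.7 to 678). Socs1, of the same family, differed by 3.20 ± 0.33 in Peyer's patches (adjusted p = 1.47e-06). Aldh1a2 makes retinoic acid, which imprints gut homing and favours regulatory T cells. It stood at 61.1 and 107 CPM in the lamina propria, against 38.0 and 28.7 in cDC1 and 19.6 and 14.4 in cDC2, a difference of 2.05 ± 0.48 (adjusted p = 0.00289) that was lost without control 3 (0.416). The level of Aldh1a2 in Peyer's patches was 41.4, 18.3 and 44.5 CPM, with a ratio of 8.49 to immature cells (counting interval 3.39 to 27.4, adjusted p = 0.0195).

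Survival genes and transcription factors moved in part. Of 8 survival genes 4 were higher in the lamina propria (median 1.57) and 3 of 7 in Peyer's patches (median 0.41), with 0 lower. Bcl2a1b, an antiapoptotic BCL2 relative with near-identical copies that share reads, differed by 1.91 ± 0.20 (adjusted p = 1.72e-08) and 1.27 ± 0.22 (adjusted p = 0.00029). Bcl2l1, which encodes BCL-XL, differed by 2.24 ± 0.75 (adjusted p = 0.0391, and 0.826 without lamina propria control 2) and 2.23 ± 0.48 (adjusted p = 0.00202). Mcl1 did not pass, at 0.28 (adjusted p = 0.546) and −0.26 (adjusted p = 0.364). Of 13 transcription factors 4 were higher and 1 lower in the lamina propria (median 0.80), and 8 and 2 in Peyer's patches (median 1.21). Id2, an inhibitor of E proteins needed for cDC1, stood at 1259 and 888 CPM and at 828, 1131 and 1542. It was apart from both immature classes in the lamina propria (117 to 307 CPM) but overlapped cDC1 in Peyer's patches (643 to 1046), with differences of 2.62 ± 0.23 (adjusted p = 4.32e-10) and 1.21 ± 0.21 (adjusted p = 0.000364). Etv3 differed by 2.06 ± 0.26 and 2.25 ± 0.26. Irf4, needed for cDC2 and their migration, passed in Peyer's patches at 1.72 ± 0.41 (adjusted p = 0.00478, and 0.397 without the allergy sum of run date 5) and stood at 0.80 in the lamina propria (adjusted p = 0.525). Spi1, which encodes PU.1, was lower in Peyer's patches by −0.82 ± 0.21 (adjusted p = 0.00859, and 0.492 without that sum).

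Further genes known from mature dendritic cells of other tissues were nearly all higher, 12 of 13 in the lamina propria and 16 of 16 in Peyer's patches, with medians of 5.42 (5.18 with bounds) and 3.75. The list was chosen as marks of this state, so its direction is not independent of the cell type. Fabp5, a fatty acid carrier, stood at 391 and 287 CPM and at 290, 363 and 543, against at most 64.2 in immature sums of these libraries, and differed by 5.42 ± 0.43 (adjusted p = 6.44e-11) and 4.25 ± 0.28 (adjusted p = 6.3e-09). Crip1, a small LIM domain protein, reached 13472 and 6466 CPM in the lamina propria (2.17 ± 0.13, adjusted p = 3.56e-14). Crip1 in Peyer's patches stood at 4333, 2905 and 5273 CPM and overlapped cDC1 at 2935, 2918 and 2596 (1.04 ± 0.20, adjusted p = 0.000763, and 0.0761 without the allergy sum of run date 5). Cacnb3, a calcium channel subunit, was higher by ratios of 536 and 117, and Tbc1d4, a Rab GTPase activator, by 2.57 ± 0.29 and 2.54 ± 0.21 on the log2 scale.

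**Figure D2:**
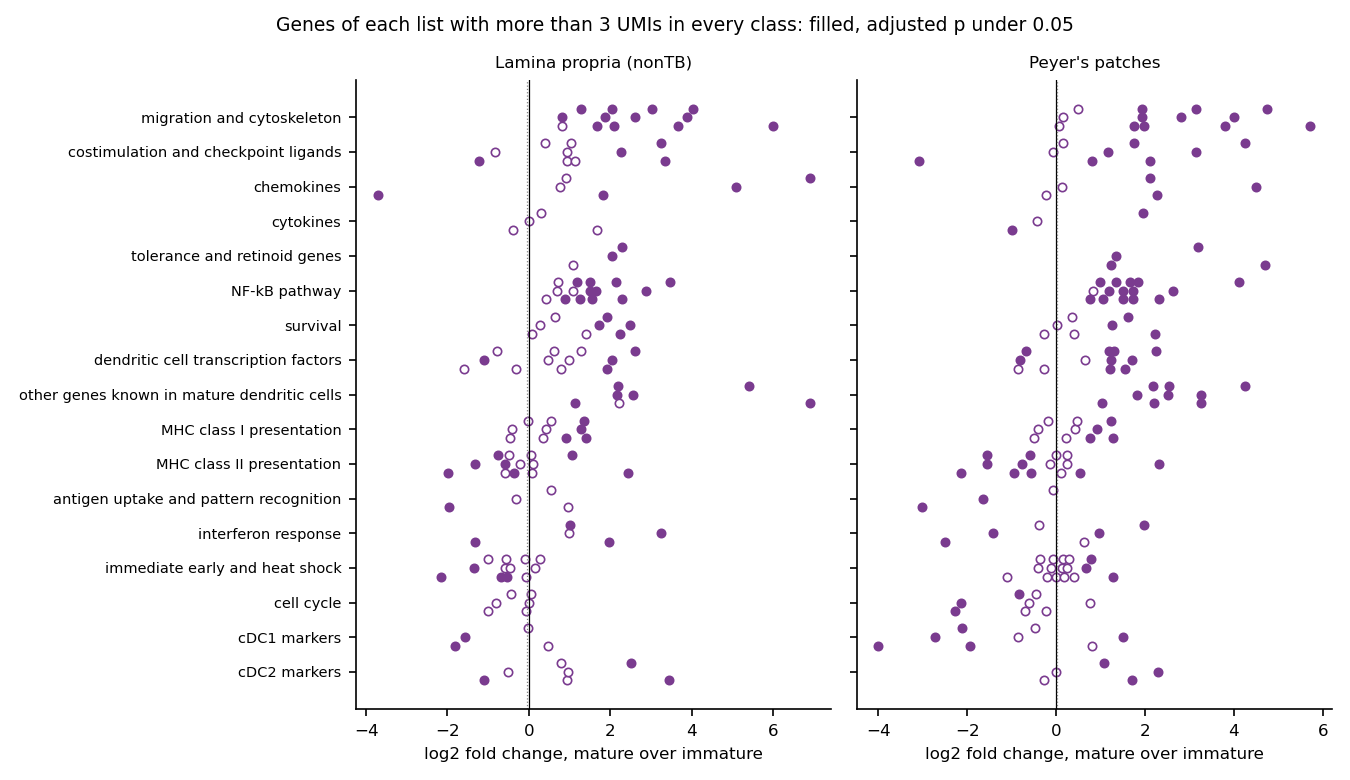
Log2 difference of mature over immature dendritic cells (x axis) for each gene of 17 gene lists (rows), in the lamina propria (left) and Peyer's patches (right), for genes with more than 3 UMIs in every class, and filled points have adjusted p under 0.05. Migration, NF-kB, tolerance and other mature genes lie to the right, and uptake, class II and cDC1 genes mostly to the left.

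Antigen presentation genes moved in different directions within the pathway. Of 14 class II genes 2 were higher and 6 lower in the lamina propria (median −0.42), and 2 and 7 in Peyer's patches (median −0.35). Without lamina propria control 3 the calls of H2-Aa, H2-Ab1, March1 and Cst3 were lost, 4 of the 6 lower genes, and that of March1 was lost without control 2 as well. Without the allergy sum of run date 5 those of H2-Aa, H2-Ab1, H2-Eb1 and H2-DMa were lost, 4 of the 7 in Peyer's patches, where March1 was lost without the control sum of run date 1 (adjusted p = 0.0516). H2-DMb1, a chain of the H2-M complex that loads peptides onto class II, stood at 281 and 140 CPM and at 152, 201 and 172, against 528 to 1100 in immature sums of these libraries. No sums overlapped, and the difference was −1.98 ± 0.23 (adjusted p = 1.38e-07) and −2.14 ± 0.20 (adjusted p = 4.69e-07). H2-Aa, a class II chain, was lower by less, at −0.37 ± 0.12 (adjusted p = 0.0266) and −0.59 ± 0.18 (adjusted p = 0.0201). Its mature sums of 8022 to 11088 CPM overlapped the cDC2 sums of 10332 to 14930, and the calls were lost without lamina propria control 3 (0.331) and without the allergy sum of run date 5 (0.658). Cst3, which encodes the protease inhibitor cystatin C, is a cDC1-rich gene, at 16683 to 21216 CPM in cDC1, 4347 to 6661 in cDC2 and 3008 to 5893 in mature cells. Its differences were −0.75 ± 0.22 (adjusted p = 0.0205, and 0.201 without lamina propria control 3) and −1.56 ± 0.19 (adjusted p = 5.8e-06). Lgmn, an endosomal protease, was higher by 2.45 ± 0.57 (adjusted p = 0.0024, and 0.406 without lamina propria control 2) and 2.32 ± 0.30 (adjusted p = 1.3e-05).

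On the class I side 4 of 10 genes were higher and 0 lower in each tissue, with medians of 0.48 and 0.45. B2m, the shared light chain of class I, stood at 3252 and 3467 CPM and at 5865, 6217 and 7403. The lamina propria cDC2 held 1704 and 1781, the Peyer's patch cDC2 3230 and 3543, and cDC1 1018 to 2474, so within each tissue every mature sum was higher, by 1.36 ± 0.12 (adjusted p = 7.12e-10) and 1.23 ± 0.18 (adjusted p = 5.05e-05). H2-K1, a class I heavy chain whose reads can be shared with related genes, differed by 1.27 ± 0.17 and 1.28 ± 0.18. Psme2, a proteasome activator subunit, differed by 1.42 ± 0.17 (adjusted p = 1.7e-07) and 0.91 ± 0.20 (adjusted p = 0.00203, and 0.0756 without the allergy sum of run date 5). Wdfy4, needed for cross-presentation by cDC1, was lower by −1.57 ± 0.31 (adjusted p = 0.000519) and −1.94 ± 0.27 (adjusted p = 2.74e-05). Of the uptake receptors 2 of 11 and 3 of 6 were lower and 0 higher (medians −0.31 and −2.33). Without lamina propria control 3 the calls of Clec12a and Cd14 were lost, and that of Clec12a without control 2 as well. In Peyer's patches the log2 difference of Cd14 turned to 0.86 without the allergy sum of run date 5. Clec12a, a C-type lectin, stood at a ratio of 0.132 to immature cells in the lamina propria on 2 UMIs (counting interval 0.0158 to 0.486), and differed by −1.66 ± 0.30 in Peyer's patches (adjusted p = 0.0005, and 0.0638 without the allergy sum of run date 5).

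Identity genes gave different counts by the immature class they were compared with. Against the mean of both classes, of cDC1 genes outside the gates 4 of 9 were lower and 0 higher in the lamina propria (median −1.57), and 6 of 10 and 1 in Peyer's patches (median −2.03). Naaa, a lysosomal amidase, stood at 12.2 and 0 CPM and at 0, 15.7 and 5.94 in mature cells, against 912 to 1405 in cDC1 and 14.3 to 62.0 in cDC2. Mature cells lay far below cDC1, and in the range of cDC2 or under it. Itgae, which encodes CD103, was lower by −1.83 ± 0.44 (adjusted p = 0.0036, and 0.23 without lamina propria control 3) and −2.12 ± 0.67 (adjusted p = 0.0269, and 0.542 without the control sum of run date 5). Cadm1, an adhesion molecule of cDC1, was the gene that was higher in Peyer's patches, by 1.50 ± 0.35 (adjusted p = 0.0039, and 0.27 without the allergy sum of run date 5). Of cDC2 genes 2 of 8 were higher and 1 lower (median 0.87), and 4 of 6 and 0 (median 1.39). Against cDC2 alone the cDC2 genes were 0 higher and 2 lower in the lamina propria (median −1.26) and 1 and 2 in Peyer's patches (median −0.41), and the cDC1 genes 2 and 2 (median 0.12) and 2 and 1 (median −0.73). Ltb, a lymphotoxin chain, differed by 3.44 ± 0.30 (adjusted p = 3.65e-10) and 1.07 ± 0.19 (adjusted p = 0.000452). S100a4, a calcium-binding protein, was called in both tissues, but its lamina propria values were 0 and 387 CPM in mature cells and 22.8 and 388 in cDC2, and without control 3 its difference was −2.79. Mature cells of Peyer's patches held S100a4 at 773, 1824 and 1161 CPM, around the cDC2 level of 1718 and 1296 and above the cDC1 level of 15.0 to 89.7.

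Genes set off by outside signals gave mixed counts. Of interferon-induced genes 3 of 6 were higher and 1 lower in the lamina propria (median 1.00), and 2 and 2 of 6 in Peyer's patches (median 0.12). Usp18, a brake on interferon signalling, differed by 3.26 ± 0.44 (adjusted p = 1.9e-06) and 1.97 ± 0.33 (adjusted p = 0.000208). Ifitm3, an antiviral membrane protein, was lower, at 550 and 361 CPM and at 345, 204 and 111 in mature cells against 618 to 1722 in immature sums, by −1.32 ± 0.21 (adjusted p = 3.49e-05) and −2.50 ± 0.30 (adjusted p = 6.14e-06). Of type 2 linked genes 2 of 9 and 3 of 6 were higher and 0 lower (medians 1.06 and 1.18). The IL-4 receptor chain Il4ra was among them in Peyer's patches, at 1.30 ± 0.34 (adjusted p = 0.00909, and 0.352 and 0.168 without the allergy or the control sum of run date 5).

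Immediate early and heat shock genes, counted together, can respond to handling as well as to signals. They were 0 higher and 5 lower of 15 in the lamina propria (median −0.57), and 3 and 0 of 16 in Peyer's patches (median 0.14). Without lamina propria control 2 the calls of Jund, Egr1 and the heat shock gene Hspa8 were lost. In Peyer's patches that of Junb was lost without the allergy sum of run date 5, and that of Dusp1 without the control sum of run date 1. Ier2 differed by −2.17 ± 0.30 (adjusted p = 3.35e-06) and −0.07 (adjusted p = 0.821), and Jun by −1.0 (adjusted p = 0.275) and 1.27 ± 0.20 (adjusted p = 9.67e-05). Cell cycle genes were 2 of 10 and 3 of 9 lower and 0 higher (medians −0.90 and −0.70). Without lamina propria control 3 the calls of Birc5 and Ccna2 were lost. Without the control sum of run date 5 the Peyer's patch calls of Birc5, Ccnb2 and Hmgb2 were lost, at log2 differences of 0.93, −0.68 and −0.41. Signs of RNA quality moved with the mature state: 7 of 8 and 5 of 8 genes of the nuclear and mitochondrial RNA list were higher, with Malat1 at 0.95 ± 0.10 (adjusted p = 3.95e-08) and 1.14 ± 0.17 (adjusted p = 7e-05). Without the allergy sum of run date 5 the Peyer's patch calls of Malat1 and mt-Co1 were lost, at log2 differences of 1.21 and 0.58. In the lamina propria mt-Co1 lost its call without control 2, and Neat1 without control 3. The summed level of the list ran from 54952 to 93983 CPM in nonTB mature sums, against 39412 to 55313 in cDC1 and 32572 to 41414 in cDC2. The IgDLow fraction held 72585 CPM in its control sum of mature cells, 37445 and 44592 in cDC1 and 33145 and 35867 in cDC2. The Peyer's patch ranges were 48032 to 101370, 31965 to 65284 and 34429 to 37804, and their part in the other differences was not tested.

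Allergy and control were first compared by the share of mature cells. In the nonTB fraction of the lamina propria members were 0.394%, 0.556% and 0.770% of cells in the control libraries and 0.250%, 0.248% and 0.211% in the allergy libraries. The groups did not overlap, with means of 0.574% ± 0.189 (SD, n = 3) and 0.236% ± 0.0222 (SD, n = 3). A two-sided exact permutation test within run dates gave p = 0.167, the smallest its 12 arrangements allow, and 0.333 adjusted over the 4 share tests. The order was the same within each run date, at 0.475% against 0.249% in run date 6 (means of 2 libraries each) and 0.770% against 0.211% in run date 7 (1 library each). As a share of gated dendritic cells the means were 11.9% ± 1.94 and 8.67% ± 1.87 (SD, n = 3 each, exact permutation p = 0.167, adjusted 0.333).

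In Peyer's patches the share followed run date far more than condition. Members were 2.26% and 2.21% of cells in the control libraries of run date 5 and 1.95% and 1.61% in its allergy libraries. In run date 4 they were 0.673% in the control and 0.440% in the allergy library, in run date 3 0.178% and 0.0257%, in run date 2 0.0451% and 0 on average, and in run date 1 0.129% and 0.187% on average. The shares were lower in allergy in 4 of 5 run dates. Of these, run date 2 rested on 1 control and 0 allergy members, and run date 3 on 2 and 1, too few to give a direction. Conditions were permuted within run dates and, in run dates 1 and 2, also within the location letter (D, I or J) of the library titles. Under letter D of run date 1 only a control library had cells. Over all libraries the mean shares were 0.585% ± 0.891 (SD, n = 10) in control and 0.489% ± 0.758 (SD, n = 9) in allergy. The two-sided exact permutation p of this difference was 0.302 (768 arrangements, smallest possible p 0.00521), and 0.403 adjusted over the 4 tests. The sign of this mean difference turned when either control library of run date 5 was left out, at 0.0911 and 0.0853 percentage points. Without control library 4 or without control library 6 it was −0.160 percentage points, with an exact permutation p of 0.0365 (unadjusted) in each case. As a share of gated dendritic cells the means were 63.2% ± 33.1 (SD, n = 9) and 58.2% ± 32.3 (SD, n = 6), with an exact permutation p of 0.562.

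**Figure D3:**
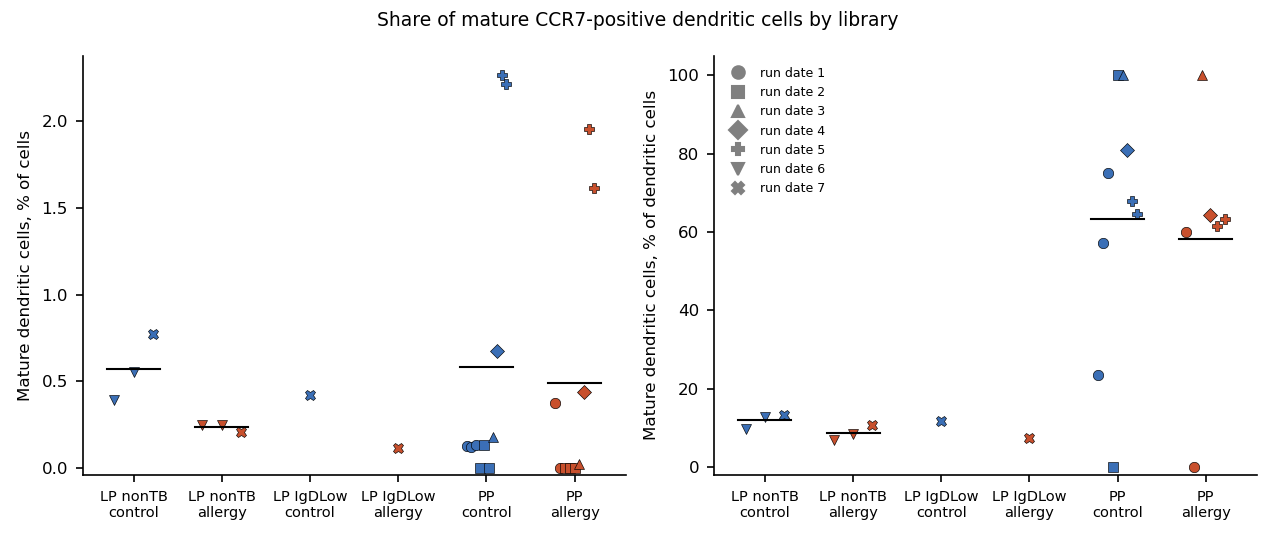
Share of mature CCR7-positive dendritic cells per library, in percent of all cells (left) and of gated dendritic cells (right), by tissue fraction and condition (blue control, red allergy), with marker shapes for run dates and bars for group means. The 3 allergy libraries of the nonTB fraction lie at 0.211% to 0.250% of cells, below the 3 control libraries.

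Within mature cells few genes differed between allergy and control. Because no allergy library of the lamina propria held 10 members, sums of at least 5 cells were compared, 3 against 3 in each tissue with run date as a term. In the lamina propria 1 of 874 genes (0.114%) passed, lower in allergy, and in Peyer's patches 3 of 1465 (0.205%), 1 higher (0.0683%) and 2 lower (0.137%). At an unadjusted p under 0.05 there were 35 and 101. The Peyer's patch split depended on single sums: it was 6 higher and 0 lower without the allergy sum of run date 4, 5 and 1 without the control sum of that date, 0 and 9 without either sum of run date 5, and 10 and 3 or 9 and 4 without the allergy or the control sum of run date 1. With at least 3 Ccr7 UMIs per member it was 19 and 11. Lyz2, which encodes lysozyme M of myeloid cells, was lower in allergy in both tissues. The nonTB sums of the lamina propria held 37.8, 245 and 79.9 CPM of it in allergy and 4166, 2152 and 808 in control, which did not overlap (−4.04 ± 0.50, adjusted p = 0.0327). The IgDLow control sum of 11 cells, which the test did not include, held 34.5 CPM of Lyz2, below every allergy sum. Peyer's patch sums held 254, 402 and 420 CPM in allergy and 1132, 3715 and 692 in control, again apart (−1.83 ± 0.31, adjusted p = 0.00279).

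A few cells carried most Lyz2. A UMI of it was present in 1 of 7, 1 of 7 and 1 of 5 cells of the nonTB allergy sums and in 5 of 9, 6 of 14 and 6 of 19 of the control sums. In the controls 2 cells per library held 96.1%, 91.5% and 95.9% of the Lyz2 UMIs. Without the 2 cells that held the most in each library, the controls stood at 217, 229 and 38.7 CPM and the allergy sums at 0. Leaving out allergy library 2, control 1 or control 2 moved the lamina propria adjusted p to 0.301, 0.191 and 0.112, and leaving out the allergy or the control sum of run date 4 moved that of Peyer's patches to 0.569 and 0.316. The macrophage and monocyte list to which Lyz2 belongs summed to 37.8 to 354 CPM in allergy and 895 to 4202 in control in the nonTB fraction, to 57.5 in the IgDLow control sum, and to 286 to 561 and 823 to 3844 in Peyer's patches. Lyz2 itself made up most of each, as with 4166 of 4202 CPM in nonTB control 1 and 3715 of 3844 in the Peyer's patch control sum of run date 4. The list therefore adds little beyond Lyz2. Of the defining macrophage genes in these sums, C1qa had 6 UMIs in all, C1qb 3 and C1qc 0. The members with the most Lyz2 UMIs (225, 197 and 146, all from Peyer's patches) held 2, 1 and 1 UMIs of Fscn1. Of Il4i1 they held 7, 0 and 0 UMIs, and of Ccl22 0 each. The part of other cells in the Lyz2 difference was not tested beyond these values.

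The other 2 calls were in Peyer's patches. Rgs2, a brake on G protein signalling, stood at 31.8, 201 and 128 CPM in allergy and 331, 448 and 351 in control (−1.50 ± 0.32, adjusted p = 0.0267). The groups did not overlap, and in run date 5 Rgs2 was found in 35 of 96 allergy cells (36.5%) and 58 of 108 control cells (53.7%). Its adjusted p was 0.0721, 0.084 and 0.0769 without the allergy sum of run date 4, that of run date 5 or the control sum of run date 5. Clu, which encodes clusterin, stood at 159, 71.8 and 425 CPM against 0, 69.0 and 66.6 (2.35 ± 0.45, adjusted p = 0.00725). A single cell held 262 of the 286 Clu UMIs of the largest allergy sum (91.6%), and it also held 1101 UMIs of Ccl21a, 129 of Ccl19 and 62 of Dcn, genes of lymphoid stroma. Without it that sum stood at 36.7 CPM.

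None of the migration, costimulation, chemokine, NF-kB, class I, class II or other mature lists had a gene that passed between allergy and control. Their median log2 differences were −0.07 (12 genes), 0.42 (4), −1.08 (5), −0.03 (11), 0.18 (8), 0.00 (10) and −0.22 (11) in the lamina propria, beside −0.01 over all genes. Those of Peyer's patches were 0.40 (12), 0.47 (8), 0.68 (6), 0.23 (13), 0.51 (10), 0.13 (12) and 0.74 (12), beside 0.01. Among single genes, Ccl22 differed by −1.56 ± 0.88 in the lamina propria (adjusted p = 1.00) and 0.94 ± 0.31 in Peyer's patches (adjusted p = 0.294), and Ccl5 by 0.85 in Peyer's patches (adjusted p = 0.239).

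A test of whether the allergy difference itself was unlike that of immature dendritic cells called 3 of 4734 genes in the lamina propria (0.0634%, median of all genes −0.18) and 1 of 2045 in Peyer's patches (0.0489%). Ccl22 was among them in the lamina propria, with an interaction of −2.70 ± 0.56 on the log2 scale (adjusted p = 0.0121). Mature cells held 1059, 136 and 1422 CPM in allergy and 3012, 5061 and 828 in control, and the groups overlapped. Immature cDC1 held 58.3, 32.0 and 5.60 CPM of Ccl22 in allergy and 3.08, 2.93 and 8.90 in control, and the groups overlapped. Immature cDC2 held 5.61, 44.4 and 0 CPM of Ccl22 in allergy and 8.49, 58.7 and 28.7 in control, again with overlap. Of the 167, 414 and 124 Ccl22 UMIs in the mature control sums and the 28, 5 and 89 in the allergy sums, a single cell held 69.5%, 30.7% and 34.7%, and 89.3%, 60.0% and 86.5%. The Lyz2 interaction was −4.06 (adjusted p = 4.85e-11) in the lamina propria and did not pass in Peyer's patches (adjusted p = 0.798).

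**Figure D4:**
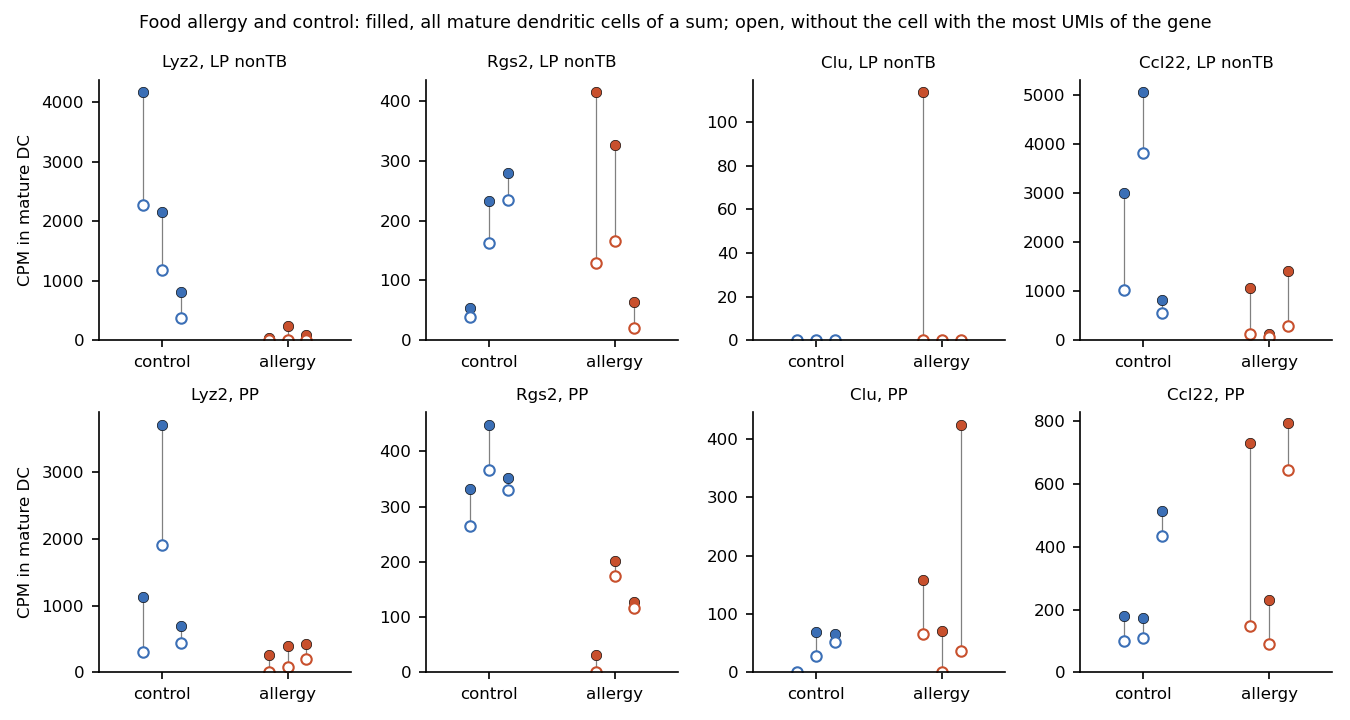
CPM of Lyz2, Rgs2, Clu and Ccl22 in mature dendritic cells of each sum of at least 5 cells, by condition, in the lamina propria (top) and Peyer's patches (bottom), with filled points for all cells and open points without the cell that holds the most UMIs of the gene. Clu in the largest Peyer's patch allergy sum falls from 425 to 36.7 without its top cell.

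Between the tissues mature cells differed in few genes by test. Lamina propria control libraries 2 and 3 were set against 4 Peyer's patch sums, and 9 of 2632 genes passed (0.342%), 7 higher in the lamina propria (0.266%) and 2 lower (0.076%). The split moved with the settings: it was 26 and 27 with sums of at least 5 cells, 32 and 28 with no low-count filter, 9 and 14 without the control sum of run date 5, 15 and 12 without that of run date 4, 3 and 1 without lamina propria control 2, and 2 and 1 without the allergy sum of run date 5. Tissue, sort and run date cannot be told apart here. Ftl1, the ferritin light chain, stood at 13540 to 29475 CPM in all 7 lamina propria sums of at least 5 cells and 4290 to 9342 in the 6 Peyer's patch sums. The ranges did not overlap, and the difference was 1.67 ± 0.29 (adjusted p = 0.0277), or 1.31 (adjusted p = 0.00269) over sums of at least 5 cells. In cDC1 Ftl1 ran from 3802 to 5145 and from 3105 to 3771 CPM. H2-M2, a nonclassical class I gene, had 2 UMIs in the tested lamina propria sums and 568 in the Peyer's patch sums, a ratio of 0.0248 (adjusted p = 0.00632). Its sums of at least 5 cells ran from 0 to 218 CPM in the nonTB fraction and from 244 to 572 in Peyer's patches, and cDC1 had none.

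Ccl22 was higher in the lamina propria by 3.45 ± 0.63 (adjusted p = 0.0361) and rested on control 2 (0.513 without it). The neutrophil chemokine Cxcl2 was higher by 2.70 ± 0.49 (adjusted p = 0.0361), with 489 and 501 CPM against 25.9 to 175, and was lost without control 2, without control 3 or without the allergy sum of run date 5 (adjusted p = 0.154, 0.138 and 0.0952). Apol7c, an apolipoprotein L family gene, stood at 1247 and 167 CPM against 0 to 55.2 (4.38 ± 0.80, adjusted p = 0.0361, and 0.617 without control 2), while lamina propria allergy sums held 0, 0 and 224. Cdc42ep3 had 0 UMIs in the tested lamina propria sums and 293 in Peyer's patches. Outside the test, nonTB control 1 held 1 UMI of it and nonTB allergy libraries 1, 2 and 3 held 3, 1 and 0. The IgDLow control library held 2, and the IgDLow allergy library 12 in its 4 members. The Cdc42ep3 call was lost without control 2, without control 3 or without the allergy sum of run date 5. The plasma cell genes Jchain, Igha and Igkc were higher by 3.63 ± 0.50, 3.65 and 3.00, and immature cells showed the same order: Jchain ran from 488 to 786 CPM in lamina propria cDC1 and 0 to 40.6 in Peyer's patch cDC1, beside 492 to 782 and 0 to 121 in mature cells. The summed B and plasma cell list ran from 4279 to 6065 CPM in nonTB mature sums and 540 to 999 in Peyer's patch ones. Ftl1 lost its call without control 2 (0.167) or the allergy sum of run date 5 (0.0952), and H2-M2 without control 3 (0.0529).

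**Figure D5:**
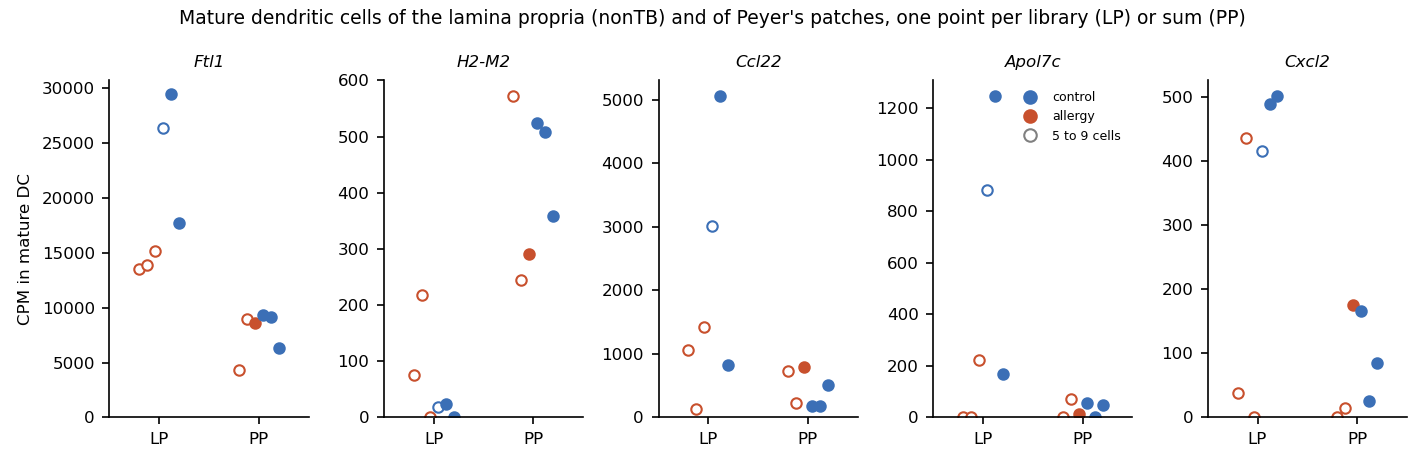
CPM of Ftl1, H2-M2, Ccl22, Apol7c and Cxcl2 in mature dendritic cells of each sum, lamina propria against Peyer's patches, with open points for sums of 5 to 9 cells. Ftl1 lies higher in every lamina propria sum, and Apol7c and Cxcl2 overlap.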

How the data were processed

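Single-cell libraries (10x) of Peyer's patches and lamina propria were analysed, 27 of 28 with cells in the matrix, and the bulk samples were not used. The deposited values are raw UMI counts per gene and cell, per the file headers and values, with no normalization by the authors. Per the submitters' processing notes the series used bcl2fastq, Bowtie2, RSEM and Cell Ranger with build mm10, without versions. The authors' cells held at least 501 UMIs and at most 13.4% mitochondrial counts, and no further cell filter was applied. No doublet caller was used, since the one tried marked almost no cells, and doublets were weighed by UMIs of other lineages only.

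The members and gene lists were chosen with earlier results of these data known. Immature gates asked for at least 5 Cd74 UMIs and none of Ccr7, Fscn1, Siglech, C1q, Cd79a or T cell transcripts. For cDC1 at least 2 UMIs of Xcr1 and Clec9a were needed. For cDC2 the gate asked for none of these and none of Ly6c2, at least 1 of Flt3, Itgax and Zbtb46, and at least 2 of Cd209a, Clec10a, Sirpa and Mgl2. Counts were summed per class and library, or per run date and condition in Peyer's patches where libraries held few members, with sums of at least 10 cells. Comparisons with allergy used at least 5, because 10 could not be fitted, which departs from the planned design. edgeR 4.0.16 with limma 3.58.1 in R 4.3.3 (TMM factors, low-count filter, quasi-likelihood test, Benjamini-Hochberg adjustment) gave log2 differences, with library or run date as a term. DESeq2 1.42.0 was an alternative, and the closing section gives the others. Named genes were list members, plus up to 12 with the largest and 12 with the smallest called log2 difference at 50 CPM or more in the higher group and in 1 direction throughout. CPM is per 1000000 UMIs of the sum. Intervals are exact at 95% and cover counting error only. The scripts were tested on simulated data. Promoters came from a RefSeq table.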

Additional observations from a re-analysis of the deposited data

Results flagged for a closer look

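Among genes whose allergy difference in the lamina propria was unlike that of immature dendritic cells by the interaction test of edgeR, Lyz2 stood at −4.06, Ccl22 at −2.70 and 2810417H13Rik at −8.55 on the log2 scale. For 2810417H13Rik (Pclaf, a gene of DNA replication) the 3 allergy sums of mature cells held 0 UMIs and the control sums 10, 1 and 11, so the fitted value depends on the prior count (adjusted p = 0.0491). In Peyer's patches Wfdc17, a secreted whey acidic protein family member, stood at −4.40 ± 0.84 (adjusted p = 0.0348), with mature values of 773 CPM in the control sum of run date 1, 14.4 in that of run date 5, and 0, 0 and 41.6 in the allergy sums.

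Pigp, an enzyme of membrane anchor synthesis, was lower in mature than immature cells of the lamina propria (−1.82) and higher in Peyer's patches (1.69), with every sum on its side, and the difference between tissues was not tested. The IgDLow fraction, which no test used, held mature cells at 0.423% of the control and 0.117% of the allergy library, 1 library each.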

How the results depend on the processing

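Mature cells against immature ones gave 673 genes in the lamina propria and 1233 in Peyer's patches. DESeq2 gave 430 (75.6% higher against 63.0%) and 685. Sums of at least 5 cells gave 1024 in the lamina propria (52.0% higher) and no low-count filter 725 (51.3% higher). Leaving out cells above the 95th UMI percentile gave 640 in Peyer's patches. Leaving out 1 library or sum gave 353 to 672 and 421 to 1322. Against cDC1 alone the counts were 911 (497 to 933 leaving out 1) and 1599 (626 to 1616, 953 by DESeq2, 623 without the highest UMI cells, 1060 with at least 5 cells). Against cDC2 alone they were 529 (267 to 538, 318 by DESeq2, 816 with at least 5 cells) and 529 (135 to 508, 180 by DESeq2, 338 without the highest UMI cells). Of named genes 91 of 132 passed in the lamina propria, 50 under every alternative, and 122 of 148 in Peyer's patches, 69 under every alternative. The sign turned for S100a4 (−2.79 to 2.63 leaving out 1, the lowest without lamina propria control 3) and in Peyer's patches for Cd14 (−3.505 to 0.86, the highest without the allergy sum of run date 5), Birc5 (−3.13 to 0.93, the highest without the control sum of run date 5) and Hmgb2 (0.52 without the highest UMI cells). The causes were not tested.

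Allergy against control gave 1 gene in the lamina propria: 9 with no low-count filter, 0 without the run date term, 2 without the highest UMI cells, 2 without cells with another lineage's UMIs, and 0 to 3 leaving out 1 library. Deviations from the group means correlated at −0.27 to −0.03 over 877 genes between same-numbered libraries, and at −0.11 to 0.23 between differently numbered ones. With few cells per sum and means of 3 libraries, these values cannot show whether the numbers pair libraries. The replicate block gave 0 genes (Lyz2 adjusted p = 0.386). Peyer's patches gave 3 genes: 1 by DESeq2, 11 with no filter (7 higher, 4 lower), 30 with Ccr7 of at least 3 UMIs (19 and 11), and 0 without the run date term, without the highest UMI cells, with libraries as units or in run date 5 alone, and 6 to 13 leaving out 1 sum. The tissues gave 9 genes: 23 by DESeq2 (16 higher, 7 lower), 3 with controls only, 60 with no filter (32 and 28), 53 with at least 5 cells (26 and 27), 20 without cells with another lineage's UMIs (11 and 9), and 3 to 27 leaving out 1. None of the 9 passed under every alternative. The Peyer's patch share difference of −0.0954 percentage points turned to 0.0128 after thinning (exact permutation p = 0.865) and 0.0578 in run date 1 alone (exact permutation p = 0.75), and ran from −0.278 to 0.0911 leaving out 1 library. The lamina propria share difference ran from −0.427 to −0.239. The gate of cDC2 without Sirpa in Peyer's patches, at least 10 cells for allergy, and Peyer's patch allergy without cells with another lineage's UMIs gave no value.

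Lamina propria allergy sums held 5 to 7 mature cells each. Alternatives for at least 5 cells, other lineages, single run dates and top cells were chosen after seeing the data.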

Other observations

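Aire, the regulator of tissue antigen expression best known from the thymus, was looked at after its values were seen. It had a UMI in 46 of 327 mature cells, of 92 cells in the whole matrix. Of these 43 were among the 251 Peyer's patch members (17.1%) and 3 among the 76 of the lamina propria. No immature cDC1 and 1 cDC2 held a UMI, and 0.0797% of all cells outside the mature gate did. In Peyer's patches edgeR called Aire higher in mature cells (adjusted p = 4.42e-05). With so few immature UMIs its fitted log2 value of 5.66 ± 0.77 depends on the prior count and is not a measured size. In run date 5, 16 control cells (14.8%) and 22 allergy cells (22.9%) held Aire, which was not tested.

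Peyer's patch members with an Aire UMI and those without had median totals of 6644 and 6426 UMIs. Summed levels were 889 and 271 CPM of H2-M2, 251 and 36.3 of the protease Tmprss11d, 200 and 35.6 of the pentraxin Nptx2, 1212 and 462 of Ccl22, 947 and 353 of Cd200, and 27.6 and 927 of Lyz2. The cells were split by a measured gene, so these are descriptions without a test.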
